A study of Gasterosteus aculeatus with 17 samples.

Results

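In the gills of three-spined sticklebacks (Gasterosteus aculeatus), 78 of 22456 listed genes had different levels in freshwater fish moved to marine water and freshwater fish kept in fresh water, while the group means of marine fish were close to each other in both waters. Of these genes, 55 were higher and 23 were lower in the moved freshwater fish. They were chosen from the measured counts. CPM (counts of a gene per 1000000 counts of its library) were averaged over the fish of each group, and 0.5 CPM was added before each ratio was taken. A member had a mean of at least 5 CPM in moved or kept freshwater fish, a log2 change of at least 0.8 in size between these groups, no overlap between their individual fish, and a log2 change under 0.4 in size between moved and kept marine fish. All changes below are moved over kept fish, so for freshwater fish they compare marine with fresh water and for marine fish they compare fresh with marine water. Because all 17 fish entered the choice, neither of these changes is tested here, and both are given as descriptions.

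The fish were wild males in breeding dress. Freshwater fish came from 1 lake and marine fish from 1 stretch of sea coast, with the gills of 1 individual per library. Freshwater fish were moved to marine water for 4 days (4 fish, numbered 1 to 4) or kept in fresh water (4 fish, numbered 1, 2, 4 and 5). Marine fish were moved to fresh water for 4 days (5 fish, numbered 1 to 5) or kept in marine water (4 fish, numbered 2 to 5). Kept fish were also held captive, and within a population the water and the move cannot be told apart. Each population stands for 1 collection site, so site and habitat cannot be told apart either. Total counts were 23736661 to 27949237 in moved and 23609866 to 28960967 in kept freshwater fish, and 6932688 to 16108405 in moved and 17993109 to 19450343 in kept marine fish. The freshwater groups were therefore of like depth and the moved marine fish were the shallowest. Every marine library was shallower than every freshwater library, so depth splits the fish in the same way as population.

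The gill is the main organ of salt exchange in bony fish. In fresh water its ionocytes take up sodium, chloride and calcium against a gradient, and in sea water they secrete sodium chloride by way of the sodium-potassium pump, a sodium-potassium-chloride cotransporter and the CFTR chloride channel. Euryhaline fish such as sticklebacks change between these states when salinity changes. Which of the 78 genes take part in this cannot be said here: the files give Ensembl IDs without names, and none of the 22456 IDs matched the reference gene table, so tissue markers could not be examined and no sequence is shown. Gill tissue was sequenced whole, so fewer cells of a type and less RNA per cell cannot be told apart.

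Of 13123 genes with a freshwater mean of 5 CPM or more, 214 met the freshwater criteria, 92 higher and 122 lower in moved fish. The marine criterion then removed far more of the lower genes. Among the 122 genes lower in moved freshwater fish, moved marine fish were higher by 0.4 log2 units or more for 99, lower by as much for 0, and within 0.4 for 23 (18.9%). Those 99 genes were thus higher in fresh water in both populations. Among the 92 genes higher in moved freshwater fish, moved marine fish were lower by 0.4 or more for 29, higher by as much for 8, and within 0.4 for 55 (59.8%). These numbers rest on CPM from library totals. Under TMM scaling, described below, 58 higher and 166 lower genes met the freshwater criteria. Moved marine fish were then within 0.4 for 27 (46.6%) of the higher and 41 (24.7%) of the lower genes. The marine criterion again removed more of the lower genes, by a smaller margin. Across the 18238 genes tested below, again on library totals, moved and kept freshwater fish did not overlap for 7.17% in the higher direction. In the lower direction this was 2.62%.

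**Figure D1:**
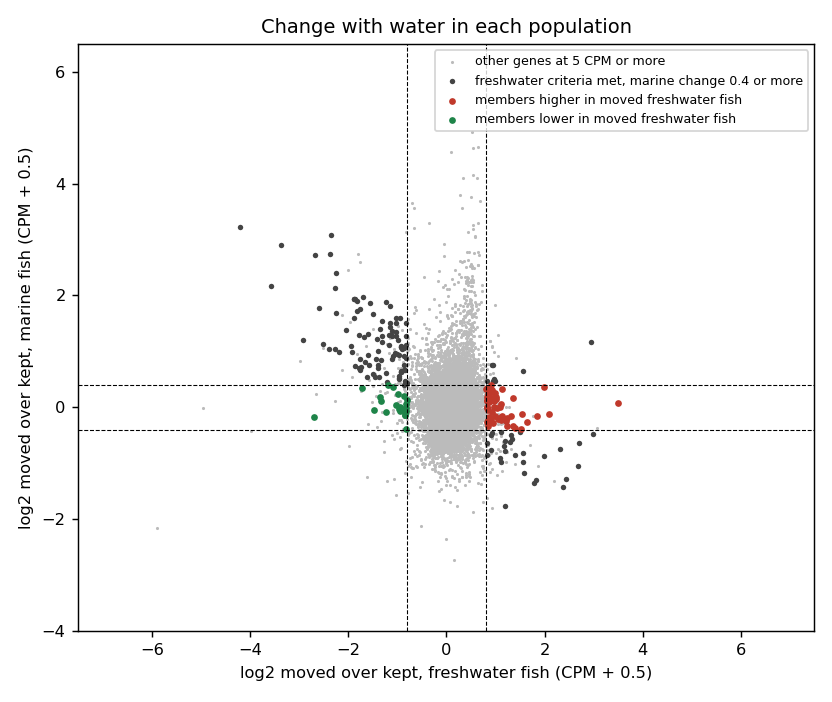
Log2 change of moved over kept fish, on group mean CPM + 0.5, in freshwater fish (horizontal axis) and in marine fish (vertical axis); each point is a gene with a freshwater mean of 5 CPM or more. Dashed lines mark 0.8 and 0.4 log2 units, red points are the 55 members higher and green points the 23 members lower in moved freshwater fish, and black points at upper left include the 99 genes that were higher in fresh water in both populations.

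The balance of 55 higher to 23 lower rests on the scaling of the libraries. With CPM on column totals, the median gene with 5 CPM or more was 0.10 log2 units higher in moved than in kept freshwater fish, and with TMM scaling, which sets the libraries to a common middle, this median was -0.01. Under TMM the same criteria found 27 higher and 41 lower genes, a share of 39.7% higher against 70.5%. All 55 higher members stayed higher and all 23 lower members stayed lower under TMM, and 27 and 22 of them still met every criterion. The median change of the 55 genes was 0.97 log2 units on column totals and 0.85 under TMM, and that of the 23 genes -0.96 and -1.07. The number of genes found also depended on which freshwater fish was left out. It was 97 higher and 38 lower without moved freshwater fish 3, 108 higher without kept freshwater fish 2, and 111 higher and 37 lower without kept freshwater fish 4. It was 59 to 69 higher and 23 to 27 lower without moved freshwater fish 1, 2 or 4 or kept freshwater fish 1. Without kept freshwater fish 5 it was 50 higher and 25 lower. Fewer fish are less likely to overlap, and the part of this in the numbers was not tested.

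For most members the difference was moderate. Among the 55 higher genes the fold of moved over kept freshwater fish ran from 1.74 to 11.2 with a median of 1.96, and it was above 2 for 24 genes and above 4 for 2. Among the 23 lower genes the fold of kept over moved fish ran from 1.75 to 6.51 with a median of 1.94, and it was above 2 for 9 genes and above 4 for 1. The members nearest the limit were at 0.80 log2 units in size, with the nearest genes outside it at 0.80 as well: 37 further genes on the higher side and 14 on the lower side lay between 0.7 and 0.8. Another 37 and 33 genes met every criterion but the absence of overlap. Their changes reached 3.07 log2 units in size on the higher side and 4.96 on the lower side, so not all were near the limit.

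The largest change among the members was that of ENSGACG00000000730. It had 6.98, 8.11, 6.15 and 6.42 CPM in moved freshwater fish, against 0.324, 0.0691, 0.0760 and 0.169 CPM in kept freshwater fish. The gene was thus close to absent in freshwater fish kept in fresh water and clearly present in those in marine water, a log2 change of 3.49. In marine fish it had 3.18, 4.47, 4.04, 4.30 and 7.48 CPM after the move to fresh water, against 4.28, 3.41, 3.73 and 6.27 CPM in kept fish. All 9 marine fish, in either water, lay above every kept freshwater fish, and 2 of them, moved fish 5 and kept fish 5, reached the range of moved freshwater fish.

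ENSGACG00000010640, next in size, had 6.30, 5.61, 4.72 and 5.99 CPM in moved freshwater fish, against 0.324, 1.38, 1.22 and 0.847 CPM in kept freshwater fish (log2 change 2.09). Marine fish lay between these levels, at 1.64, 2.88, 2.48, 3.87 and 2.64 CPM when moved, against 3.33, 0.440, 3.46 and 4.73 CPM when kept. Kept marine fish 3, at 0.440 CPM, was the only marine fish within the range of kept freshwater fish, and kept marine fish 5 was the only one within the range of moved freshwater fish. All counts of this gene are multiples of 4, so its lowest values may carry more counting error than they show.

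Among the lower members the largest change was that of ENSGACG00000008081 (log2 change -2.70). It had 1.72, 0.455, 1.14 and 1.10 CPM in moved freshwater fish, against 11.7, 6.32, 14.6 and 7.12 CPM in kept freshwater fish. Marine fish had 1.23, 0.865, 1.68, 0 and 0 CPM when moved, against 0.667, 0.661, 1.14 and 1.23 CPM when kept. The counts of 0, in moved marine fish 4 and 5, do not show absence: 3 counts would be 0.264 and 0.330 CPM in these fish. All counts of this gene are multiples of 3, so counting error may allow levels above these values. Freshwater fish in fresh water thus stood apart from the other 13 fish, including marine fish in fresh water.

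ENSGACG00000018947, among the most abundant members, had 544, 802, 362 and 574 CPM in moved freshwater fish, against 2728, 1372, 2087 and 1311 CPM in kept freshwater fish (log2 change -1.72). Marine fish had 839, 720, 1055, 509 and 451 CPM when moved, against 631, 566, 552 and 494 CPM when kept. As for the gene before, the kept freshwater fish were above all other fish. The moved marine fish were on average 0.35 log2 units above the kept ones, near the limit of 0.4, with overlap between the groups.

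**Figure D2:**
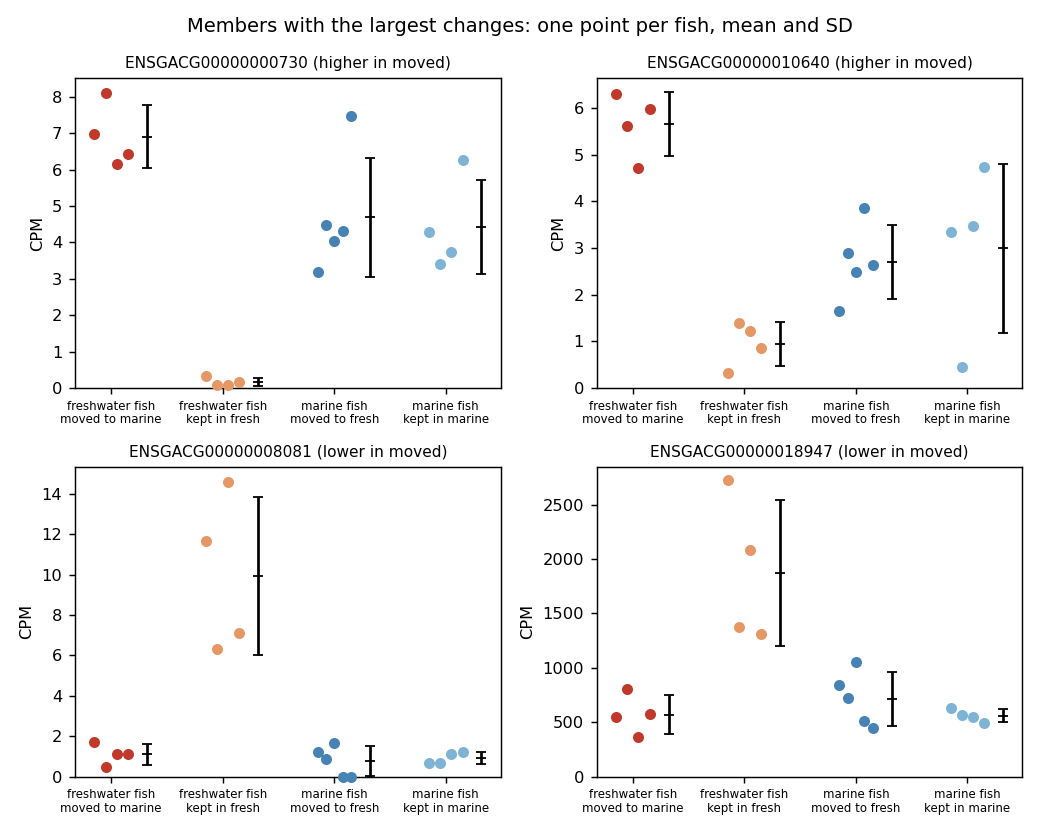
CPM of the 2 members with the largest change in each direction, 1 point per fish, with the mean and SD of each group (n = 4, 4, 5 and 4 from left to right). Both upper genes were at 4.72 CPM or more in every freshwater fish moved to marine water and at 1.38 CPM or less in every freshwater fish kept in fresh water, and both lower genes were highest in the kept freshwater fish.

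The level of marine fish relative to freshwater fish was not itself a criterion, but the minimum of 5 CPM was asked of freshwater fish only. That minimum can favour genes with lower marine levels. These are nearer the kept level for the higher members and nearer the moved level for the lower members. How far it moved the positions below was not tested. The marine level is given as a position on a scale set by the 2 freshwater levels. The position is 0 where the marine mean, averaged over both waters on the log2 scale, equals the moved freshwater mean and 1 where it equals the kept freshwater mean. For the 55 higher members the median position was 0.79 (quartiles 0.41 and 1.10). The median thus lay nearer the level of freshwater fish kept in fresh water, with wide variation between genes. By bands set after the values were seen, 22 genes lay near the kept level (within 0.25 of 1), 7 beyond it, 16 between the levels, 9 near the moved level (within 0.25 of 0) and 1 beyond it. For the 23 lower members the median position was 0.35 (quartiles 0.06 and 1.08), with 6 genes near the kept level, 1 beyond it, 6 between, 9 near the moved level and 1 beyond it. No test of the distance to either freshwater level is given, because both levels were used in the choice.

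**Figure D3:**
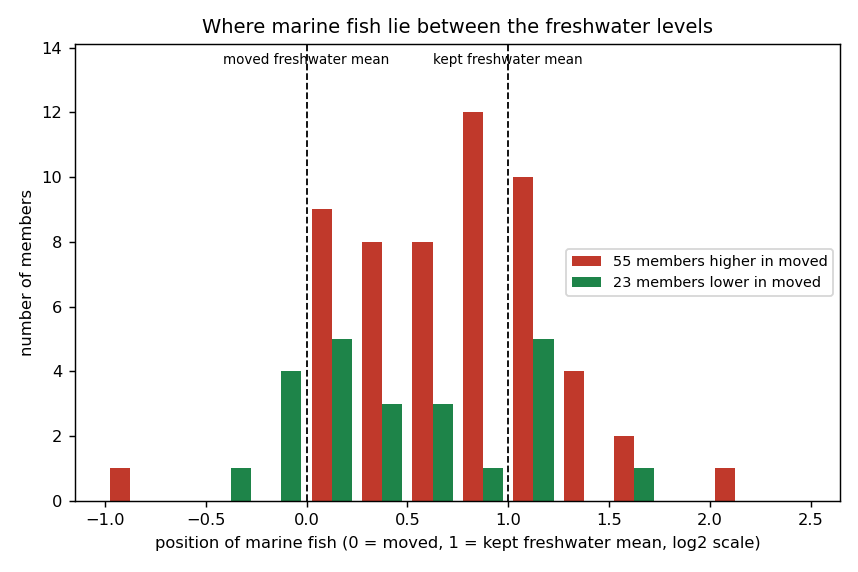
Number of members by the position of the marine mean between the moved (0) and the kept (1) freshwater mean on the log2 scale, in bins of 0.25. The 55 higher members (red) have their median at 0.79 and the 23 lower members (green) at 0.35, with 9 genes of each set near the moved level.

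For 18 of the 55 higher members, all 4 freshwater fish in marine water lay above all 13 other fish, which was so for 2.09% of the 18238 genes. Under TMM scaling this held for 11 of the 55. Examples by rank of change are the genes ranked 15 and 17, which are abundant. The gene ranked 15 had 232, 341, 348 and 314 CPM in moved freshwater fish, against 101, 221, 173 and 63.8 CPM in kept freshwater fish, and in marine fish it ran from 62.2 to 154 CPM when moved and from 78.9 to 166 CPM when kept. The gene ranked 17 had 210, 295, 160 and 231 CPM in moved freshwater fish, against 118, 108, 119 and 69.6 CPM in kept freshwater fish, and marine fish did not exceed 127 CPM when moved or 144 CPM when kept. On column totals the 4 moved freshwater fish thus lay above every other group at once in these 2 genes. For the gene ranked 15 the margin was narrow, with 232 CPM in moved fish 1 against 221 CPM in kept fish 2. Whether these 2 genes are among the 11 under TMM scaling is not given here.

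In 3 of the 55, among them ENSGACG00000000730, the kept freshwater fish lay below all 13 other fish (0.225% of all genes), and under TMM scaling this was so for 4. The most abundant of the 3, ranked 26, had 252, 223, 183 and 241 CPM in moved freshwater fish, against 132, 105, 107 and 109 CPM in kept freshwater fish, and 149 to 281 CPM in moved and 166 to 274 CPM in kept marine fish. Here freshwater fish in marine water were level with marine fish. The gene ranked 38 was the only one of the 55 with a position beyond the moved level: it averaged 36.3 ± 2.51 CPM in moved and 19.5 ± 3.74 CPM in kept freshwater fish (SD, n = 4 each), and 66.0 ± 65.0 CPM in moved (n = 5) and 55.6 ± 11.5 CPM in kept (n = 4) marine fish. Its mean in moved marine fish was raised by fish 2, at 179 CPM, with fish 1 at 11.8 CPM.

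On the lower side it was more often the kept freshwater fish that stood alone, by a margin that was small under TMM scaling. In 8 of the 23 lower members they lay above all 13 other fish (0.691% of all genes), among them both named lower genes. In 4 of the 23 the moved freshwater fish lay below all 13 others (0.28% of all genes). Under TMM scaling the counts were 5 and 4. The criteria already ask that the 2 freshwater groups do not overlap, so nothing is read from these shares beyond the counts.

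The 3 lower members ranked 11, 12 and 13 had nearly equal counts. Their counts differed from each other by no more than 5.42% in any fish, and the log2 ratio of the first to the second had an SD of 0.02 over the 17 fish. Whether they share reads was not tested, and the 3 are uncertain as separate genes. They averaged 519 to 522 CPM in moved freshwater fish and 1004 to 1010 CPM in kept freshwater fish, and the first had 618, 446, 662 and 352 CPM when moved, against 1139, 907, 954 and 1038 CPM when kept. They are also 3 of the 4 lower members in which moved freshwater fish lay below all others. Counted as 1, the lower set holds 21 entries with a median position of 0.29, and 2 entries with the moved freshwater fish alone.

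Whether freshwater and marine fish differed in the mean of both waters was not part of the choice, apart from its minimum of 5 CPM in freshwater fish. The difference was tested over all 18238 genes by quasi-likelihood in edgeR, with p-values adjusted after Benjamini and Hochberg and a limit of 0.05. Of all genes, 32% were called (16.5% higher and 15.5% lower in freshwater fish). Of the 55 higher members 18 (32.7%) were called, 12 higher and 6 lower in freshwater fish, near the 32% of all genes. Of the 23 lower members 11 (47.8%) were called, 4 higher and 7 lower in freshwater fish. With the 3 like IDs counted as 1 this was 9 of 21 (42.9%, 4 higher and 5 lower), and it was 6 of 23 without kept freshwater fish 1 and 5 of 23 without kept freshwater fish 4. The members called include genes that met the minimum of 5 CPM only through the freshwater group where they are high, among them genes given no test below. Nothing is therefore read from these shares beyond the counts. The minimum of 5 CPM in freshwater fish can favour genes that are higher in freshwater fish: of the 13122 tested genes that meet it, 20.3% were called higher and 15.3% lower. Among members with a mean of at least 5 CPM over all 17 fish, a limit chosen after seeing the data, 9 of 43 higher members were called higher and 5 lower in freshwater fish, and 3 of 19 lower members were called higher and 6 lower. Of the 12812 tested genes at that level, 19.3% were called higher and 16.7% lower. This limit still keeps genes that met the minimum through 1 freshwater group only, such as the lower member ranked 18. The median size of the population difference was 0.39 log2 units over the 55 genes and 0.54 over the 23, beside 0.32 over all genes tested. The counts by direction are small and moved with single fish. The 6 became 3 without moved freshwater fish 3 or kept marine fish 5. The 4 became 1 without kept freshwater fish 1, kept freshwater fish 4 or moved marine fish 4, and 2 without kept freshwater fish 5, moved marine fish 5, kept marine fish 2 or kept marine fish 4. The 7 became 4 without kept freshwater fish 4.

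Among the named genes, ENSGACG00000000730 had a lower mean over both waters in freshwater than in marine fish (log2 difference -2.20, SE 0.25). For ENSGACG00000010640 the difference was -0.39 (SE 0.34). Both genes met the minimum of 5 CPM only through the moved freshwater fish for which they were chosen, so no test is given. For ENSGACG00000008081 the difference was 1.85 (SE 0.47). That gene met the minimum only through the kept freshwater fish, and no test is given for it either. These averages join 2 unlike waters. The first gene averaged 0.160 CPM in freshwater against 4.69 CPM in marine fish in fresh water, but 6.92 against 4.42 CPM in marine water. ENSGACG00000008081 averaged 9.92 CPM in freshwater against 0.755 CPM in marine fish in fresh water and 1.10 against 0.924 CPM in marine water. ENSGACG00000018947 was higher in freshwater fish by 0.60 in this average (SE 0.20, edgeR adjusted p = 0.032). It averaged 1874 CPM in freshwater against 715 CPM in marine fish in fresh water, but 571 against 561 CPM in marine water. The average thus rests on the kept freshwater fish, whose high level was part of the choice. No difference in both waters is read from this p-value. It did not pass without moved freshwater fish 2, kept freshwater fish 1 or 4, moved marine fish 4, or kept marine fish 4 or 5 (range of adjusted p over single fish left out 0.015 to 0.075).

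In some other members both freshwater groups were on the same side of the marine means. The higher member ranked 52 had 6.69, 6.59, 3.88 and 7.12 CPM in moved and 3.36, 3.25, 3.50 and 2.71 CPM in kept freshwater fish, all above the 0.924 to 2.31 CPM of moved and the 1.03 to 1.65 CPM of kept marine fish (log2 difference 1.50, SE 0.20). It met the minimum of 5 CPM only through moved freshwater fish, and no test is given. The lower member ranked 18 had 4.83, 3.71, 4.34 and 5.11 CPM in moved and 8.59, 7.94, 6.69 and 10.6 CPM in kept freshwater fish. Marine fish had 7.95 to 14 CPM when moved and 10.5 to 13.2 CPM when kept (log2 difference -0.997, SE 0.123). Kept freshwater fish 1 and 5 reached the range of moved marine fish, and fish 5 also that of kept marine fish. The gene met the minimum of 5 CPM only through kept freshwater fish, and no test is given. In the 7 higher members with marine fish beyond the kept level, the marine mean over both waters lies below both freshwater means. The direction of their population difference follows from that position, since both are read from the same means, so calls are not counted for them.

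Marine fish of 1 group could be far apart where the group means were close. The higher member ranked 3 had 13.7, 0.865, 0.993, 1.41 and 11.4 CPM in moved marine fish, against 1.28, 0.936, 3.68 and 11.4 CPM in kept marine fish. In both groups some fish were as high as moved freshwater fish (7.84 to 12.2 CPM) and others as low as kept freshwater fish (1.13 to 3.69 CPM). The one ranked 4 had 65.6, 3.61, 7.39, 4.66 and 55.2 CPM in moved marine fish, again with fish 1 and 5 high, against 22.8, 28.3, 28.5 and 43.0 CPM in kept marine fish. The highest CPM of a group was more than 4 times its lowest for 19 of the 78 members in moved and 10 in kept marine fish, and for 0 in moved and 2 in kept freshwater fish, the 2 being the named higher genes. With 0.5 CPM added to each fish, which damps low values, the counts were 14 in moved and 5 in kept marine fish and 0 in both freshwater groups. The moved marine group has 5 fish and the shallowest libraries, and both can widen a range. Shares over all genes were not counted for these ranges, so no difference between groups is read from them. The absence of overlap favours narrow ranges in freshwater fish. Over the 55 members the median SD of log2 CPM + 0.5 was nevertheless above that of all genes at 5 CPM or more in every group: 0.28 beside 0.19 in moved and 0.38 beside 0.23 in kept freshwater fish, and 0.48 beside 0.30 in moved and 0.46 beside 0.25 in kept marine fish. Over the 23 it was 0.28 in moved and 0.23 in kept freshwater fish, and 0.61 in moved and 0.36 in kept marine fish. The wider spread of the 55 members was thus present in both populations. However, a change of at least 0.8 log2 units between group means can favour genes that vary between fish. The comparison with all genes is therefore a description only. The genes were not matched for level in this comparison. For 17 of the 55 the higher of the 2 freshwater means was under 10 CPM, and the part of counting error in the spread was not tested.

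The change in marine fish was therefore known only roughly for many members. Its standard error in the edgeR fit had a median of 0.29 log2 units over the 78 genes, from 0.16 to 0.78, beside 0.23 over all genes tested. For 39 members the 95% interval lay within 0.8 log2 units of 0, and for the other 39 it reached 0.8, the size asked of freshwater fish, in at least 1 direction. For ENSGACG00000008081 it ran from -1.67 to 1.27, and for ENSGACG00000000730 from -0.53 to 0.71. A response of marine fish as large as the smallest freshwater response is thus not shown to be absent for 39 of the 78 genes. The intervals use the same marine fish whose small change was a criterion, so the choice itself places them near 0. Absence of such a response is therefore not shown for the other 39 either. Moved and kept marine fish overlapped in every one of the 78 members, and did not overlap for 5.86% of all genes. The small change asked of these same marine fish favours overlap between their groups, so nothing is read from this contrast.

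**Figure D4:**
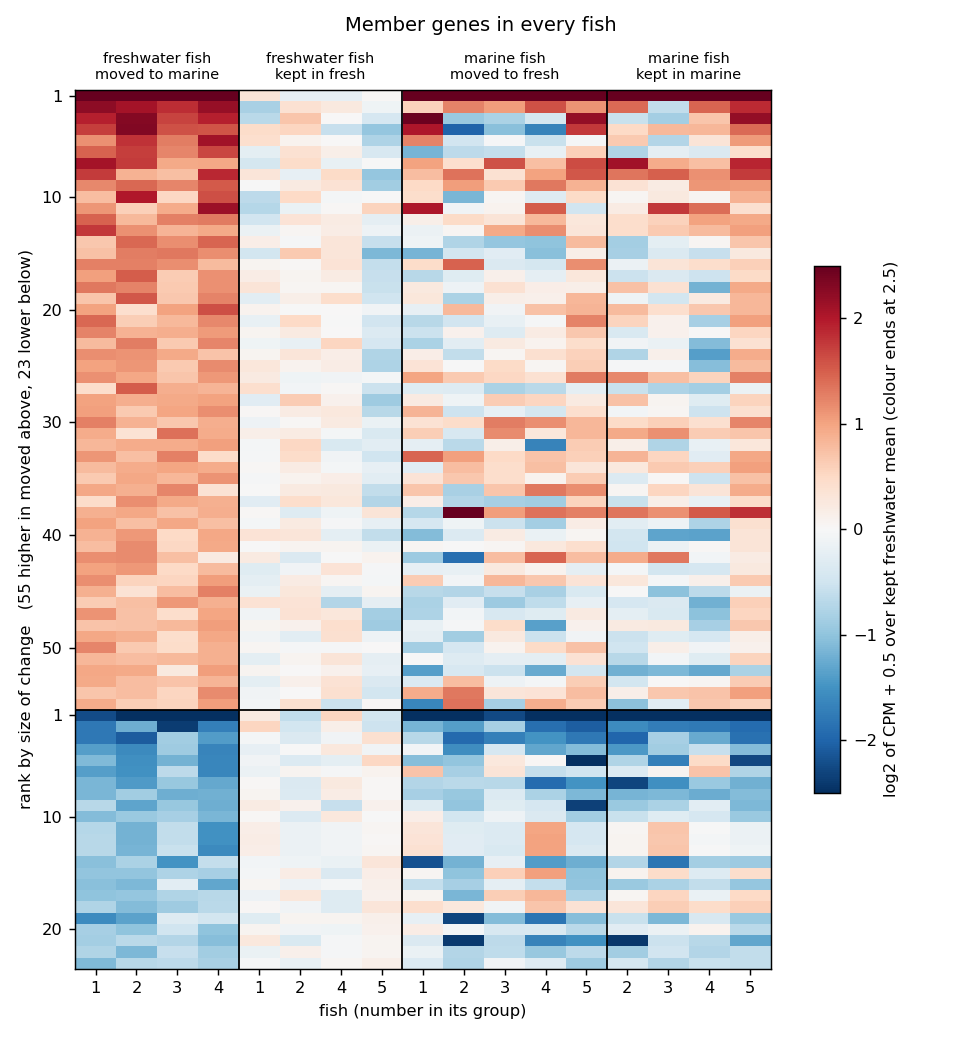
Log2 of CPM + 0.5 over the kept freshwater mean for the 55 higher members (upper block) and the 23 lower members (lower block), ordered by size of change, in each of the 17 fish. The range within a group was over 2-fold for 13 members in moved and 18 in kept freshwater fish, where the absence of overlap favours narrow ranges. It was over 2-fold for 54 members in moved and 36 in kept marine fish. The moved marine group has 5 fish and the shallowest libraries, and shares over all genes were not counted. Moved and kept marine fish 5 are redder than the rest of their groups in the upper block.

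The members also varied together among fish of the same group. The median level of the 55 higher members relative to the kept freshwater mean was 1.01, 0.96, 0.86 and 1.05 log2 units in moved freshwater fish, and -0.02, 0.14, 0.11 and -0.36 in kept freshwater fish. It was 0.04, -0.13, 0.14, 0.09 and 0.60 in moved marine fish, and -0.01, 0.07, -0.01 and 0.67 in kept marine fish. Fish 5 of both marine groups thus stood above their group, towards the moved freshwater fish, while kept freshwater fish 5 was the lowest of its group. The labels number the individuals and do not say whether a shared number links animals across groups.

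Gene by gene, kept marine fish 5 was the highest of its group for 45 of the 55 higher members, and it was the highest for 36.6% of all genes at 5 CPM or more. Moved marine fish 5 was the highest of its group for 26 of the 55, with 22.3% over all genes. Kept freshwater fish 5 was the lowest of its group for 35 of the 55, with 25.6% over all genes. Under TMM scaling these counts were 41, 22 and 37, with 28.9%, 17% and 27.7% over all genes. In the 23 lower members fish 5 of both marine groups deviated the other way. Moved marine fish 5 was the lowest of its group for 11, with 13.6% over all genes, and kept marine fish 5 for 10, with 21.5%. Under TMM scaling the counts were 12 and 11, with 17.7% and 28.8% over all genes. The 3 IDs with nearly equal counts are all among the 10 for kept marine fish 5, and some are among the 11.

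**Figure D5:**
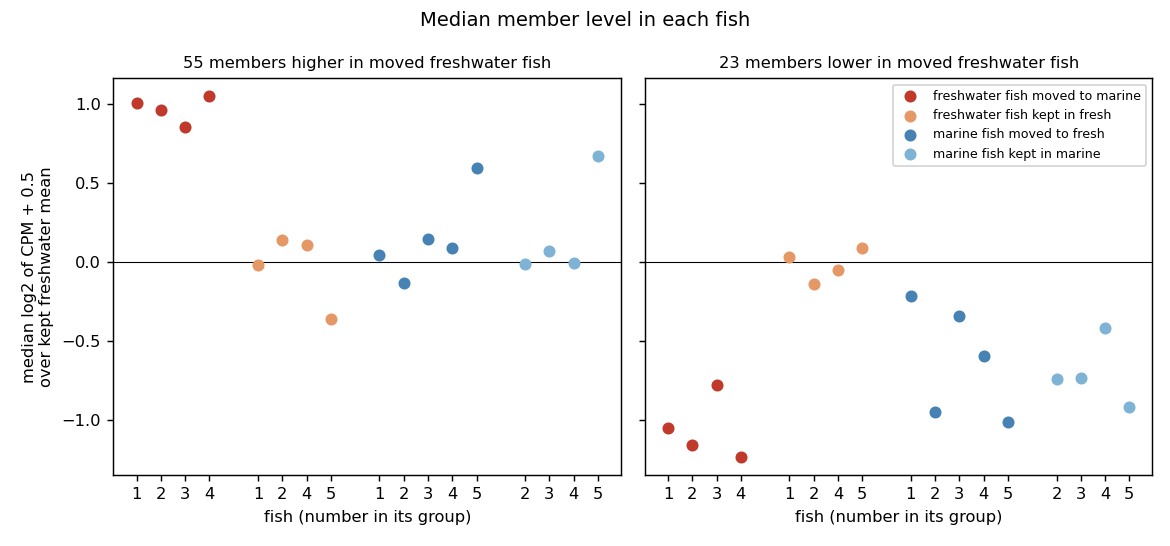
Median over members of log2 CPM + 0.5 relative to the kept freshwater mean, 1 point per fish, for the 55 higher members (left) and the 23 lower members (right). Moved and kept freshwater fish are apart by the choice of members; in the left panel moved and kept marine fish 5, at 0.60 and 0.67, lie above the other marine fish, which are between -0.13 and 0.14.

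Deviations from group means over the 17 fish had a median Pearson r of 0.29 between pairs of the 55 higher members and 0.28 between pairs of the 23 lower members, where the median over all pairs of tested genes was 0.01. Between a higher and a lower member the median r was -0.18. Fish that stood high for the first set thus tended to stand low for the second within their group, as the groups of moved and kept freshwater fish do. Pairs share the libraries and their depth, and the r is a description only. For the 23 lower members the median level was -1.05, -1.16, -0.78 and -1.23 log2 units in moved and 0.03, -0.14, -0.05 and 0.09 in kept freshwater fish. It was -0.21, -0.95, -0.34, -0.59 and -1.01 in moved marine fish, and -0.74, -0.73, -0.41 and -0.92 in kept marine fish.

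Counts of 23 of the 78 members (29.5%) shared a divisor of 2 or more over all 17 fish, beside 27.9% of the 17442 tested genes with a total over 200 counts. How such counts were made is not given in the sources used here. With counts divided by that divisor the criteria found 56 higher and 25 lower genes, 48 and 21 of them members.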

How the data were processed

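The authors deposited whole-number read counts per gene, not normalized, for 22456 genes and 17 gill libraries made from polyadenylated RNA, per the labels' protocols. TopHat2 2.1.0 and CASAVA 1.8.2 are named, per the submitters' processing notes. Counting tool, genome build, annotation and strand: not given in the sources used here. None of the 22456 IDs matched the 52177 genes of the RefSeq table for assembly fGasAcu3.hap1.1, so gene lists and cell type markers could not be used, and at most 2 IDs per direction are named, those with the largest change.

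Members were found on CPM from column totals. Population differences used edgeR 4.0.16 (filterByExpr with a minimum count of 10, TMM, glmQLFit and glmQLFTest) on all 4 groups, tested on simulated data. The contrast was the mean of the 2 freshwater groups minus the mean of the 2 marine groups. Standard errors came from the fitted quasi-likelihood weights. Alternatives were other scalings, filters, pseudocounts, DESeq2 1.42.0, limma 3.58.1 voom, robust edgeR, the fish number as a block, thinning to 6932688 counts, division by shared divisors and leaving out fish. Counts that share a divisor may carry more counting error than they show. Members, lists and tests were chosen with earlier results of these data known. Tables and plots were made in Python 3.11.15 with matplotlib 3.10.9, pandas 2.3.3, numpy 2.4.6 and scipy 1.17.1, and models in R 4.3.3.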

Additional observations from a re-analysis of the deposited data

Results flagged for a closer look

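Kept marine fish 5 stood apart from its group for the 55 genes higher in moved freshwater fish. Their median was 0.67 log2 units above the kept freshwater mean in this fish, against -0.01, 0.07 and -0.01 in kept marine fish 2, 3 and 4, a gap of 0.876 of the group's range. It was 0.65 under TMM scaling, against 0.12, 0.12 and -0.02. Of 24 groups of values examined in this way it was the 1 past Dixon's limit, and chance gives about 1 in 20. Its total of 19450343 counts was the highest of the kept marine fish. Without kept and moved marine fish 5, an omission chosen after seeing the data, the criteria found 44 higher and 19 lower genes, all of them members.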

How the results depend on the processing

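The number of higher members (55) was 27 with TMM or DESeq2 size factors, 36 with a pseudocount of 2 CPM and 28 with a marine limit of 0.2. The number of lower members (23) was 41 with TMM, 40 with DESeq2 size factors, 50 with a marine limit of 0.8 and 37 with no low-value filter. Without single fish they were 47 to 111 and 19 to 38, and 13 higher and 8 lower members met the criteria with every single fish left out. The median positions of 0.79 and 0.35 ran from 0.68 to 0.99 and from 0.28 to 0.44 over the other settings, and from 0.73 to 0.90 and 0.25 to 0.40 without single fish. For the population difference, all genes called (3011 higher, 2834 lower) stayed within 1.5 times, from 2412 to 3192 and 2275 to 3222 without single fish. Among higher members the 12 higher, 6 lower and 18 in all ran from 9 to 17, 3 to 7 and 13 to 21 without single fish, and among lower members the 4, 7 and 11 ran from 1 to 6, 4 to 7 and 5 to 12. Without both marine fish 5 (chosen after seeing the data) the 12, 6 and 4 were 20, 3 and 1. The cause was not tested. No direction of a named gene reversed.

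With the fish number as a replicate block, 11 and 4 of the 55 and 3 and 5 of the 23 were called higher and lower, and ENSGACG00000018947 had an adjusted p of 0.063. Deviations of same-numbered fish correlated at -0.32 to 0.25 over 21 pairs, above 0.1 in 6. Fish with different numbers were not compared, so these values cannot decide whether the numbers pair the fish. Depth limits genes near 5 CPM most in moved marine fish, where 1 library has 6932688 counts: at equal depth the criteria found 60 and 27 genes, 39 and 20 of them members.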
